A study of Mus musculus with 12 samples.

Results

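The genes described here encode the nuclear-encoded subunits of the mitochondrial respiratory chain and of ATP synthase, with 9 assembly factors whose symbols begin in the same way. They were chosen by symbol alone, as all genes named Nduf (a, b, c, s or v), Uqcr, Sdha to Sdhd, Cox4 to Cox8 or Atp5 on probe sets with a single symbol, and each gene was read from its probe set of highest mean signal. The rule found 90 of the 18193 genes with a value. They comprised 34 subunits and 8 assembly factors of complex I, 4 subunits of complex II, 8 of complex III, 18 of complex IV together with Cox7a2l, and 17 of complex V.

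The respiratory chain sits in the inner mitochondrial membrane. Complex I (NADH dehydrogenase) and complex II (succinate dehydrogenase, also an enzyme of the tricarboxylic acid cycle) pass electrons to ubiquinone, complex III passes them on to cytochrome c, complex IV (cytochrome c oxidase) reduces oxygen, and complex V makes ATP from the proton gradient. Cardiac muscle is rich in mitochondria, and several small subunits of complex IV exist in paired forms made by separate genes, a heart and muscle form and a liver or common form. p66 is the longest protein made from Shc1 and is known to take electrons from cytochrome c and pass them to oxygen as hydrogen peroxide, and p53 is a tumour suppressor and transcription factor.

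Transcripts were measured on 12 Affymetrix Mouse Genome arrays, 1 for each combination of 4 tissues (heart, liver, lung, thymus) and 3 genotypes. The mice were Sv/129 animals aged 2 months that were wild type (WT) or lacked p66 (p66-/-) or p53 (p53-/-) in the whole animal. Each array carried RNA pooled from 4 mice, so mice of a pool cannot be compared with each other, and pools of the same genotype may hold the same mice in different tissues. Values are log2 signals from RMA, a procedure that corrects background, equalizes the distributions of all arrays and summarizes the probes of a probe set, so a difference of 1 is a 2-fold difference of signal. Signals of different probe sets are not on a common scale, and levels are therefore compared between arrays for the same gene.

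The arrays fell with their tissue labels. The 12 cardiomyocyte markers were all higher in heart than elsewhere, 11 of 11 hepatocyte markers were higher in liver, 8 of 9 lung epithelium markers were higher in lung than in thymus, and 11 of 11 thymocyte markers were lower in lung than in thymus. Several arrays stood apart from others of their tissue. The WT thymus array had a mean salivary gland marker signal of 14.29, against 5.26 and 5.18 in p66-/- and p53-/- thymus, and correlated with them at 0.924 and 0.929 over all genes. The p53-/- thymus array had skeletal muscle markers at 9.37, against 6.63 in WT. The p53-/- lung array had 18S rRNA controls at 9.79, against 5.52 in WT and 5.94 in p66-/-. Hepatocyte markers were at 10.47 in WT, 9.56 in p66-/- and 7.26 in p53-/- lung, and at 6.36 to 7.89 on the heart and thymus arrays. Shc1 lay between 8.57 and 9.83 on all arrays and was not lower in p66-/- than in WT in any tissue. Its probe set also reads other Shc1 transcripts, so it does not check that deletion.

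The first question was how far the levels of these genes differ between tissues. All complexes had their highest levels in heart. On each of the 3 heart arrays the mean signal over the subunit genes exceeded that of all 9 other arrays, with a gap between the lowest heart array and the highest other array of 0.91 for complex I, 0.69 for complex II, 0.85 for complex III, 0.87 for complex IV and 0.96 for complex V. For complex I the mean over 34 genes was 12.16 ± 0.16 in heart, 11.05 ± 0.06 in liver, 10.81 ± 0.19 in thymus and 10.42 ± 0.13 in lung (mean ± SD, n = 3 arrays of different genotype in each tissue). Liver and thymus overlapped, at 10.99 to 11.10 and 10.64 to 11.03, and lung lay below both. Complex V gave 13.12 ± 0.09, 12.005 ± 0.06, 11.86 ± 0.18 and 11.31 ± 0.11 in the same order, again with overlap of liver and thymus. Over all 18 genes of complex IV the order was another, with liver lowest at 9.72 to 9.74, lung at 9.82 to 10.05, thymus at 10.10 to 10.20 and heart at 11.06 to 11.25, and no overlap. That place of liver rested on the genes with paired forms. Over the 4 genes of complex IV outside the paired forms (Cox5a, Cox5b, Cox6c and Cox7c) lung was lowest, at 10.51 to 10.86. Liver followed at 10.97 to 11.07, thymus at 11.12 to 11.36 and heart at 11.79 to 11.88. The order of liver and thymus is not read from this mean, which includes the dim probe set of Cox7c. Cox7c had 6.17 to 6.998 in thymus and 5.64 to 5.87 in liver. Cox6c was also higher in thymus than in liver, Cox5a was lower there, and Cox5b overlapped. In whole tissue, fewer cells of a type and less RNA per cell cannot be told apart.

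**Figure D1:**
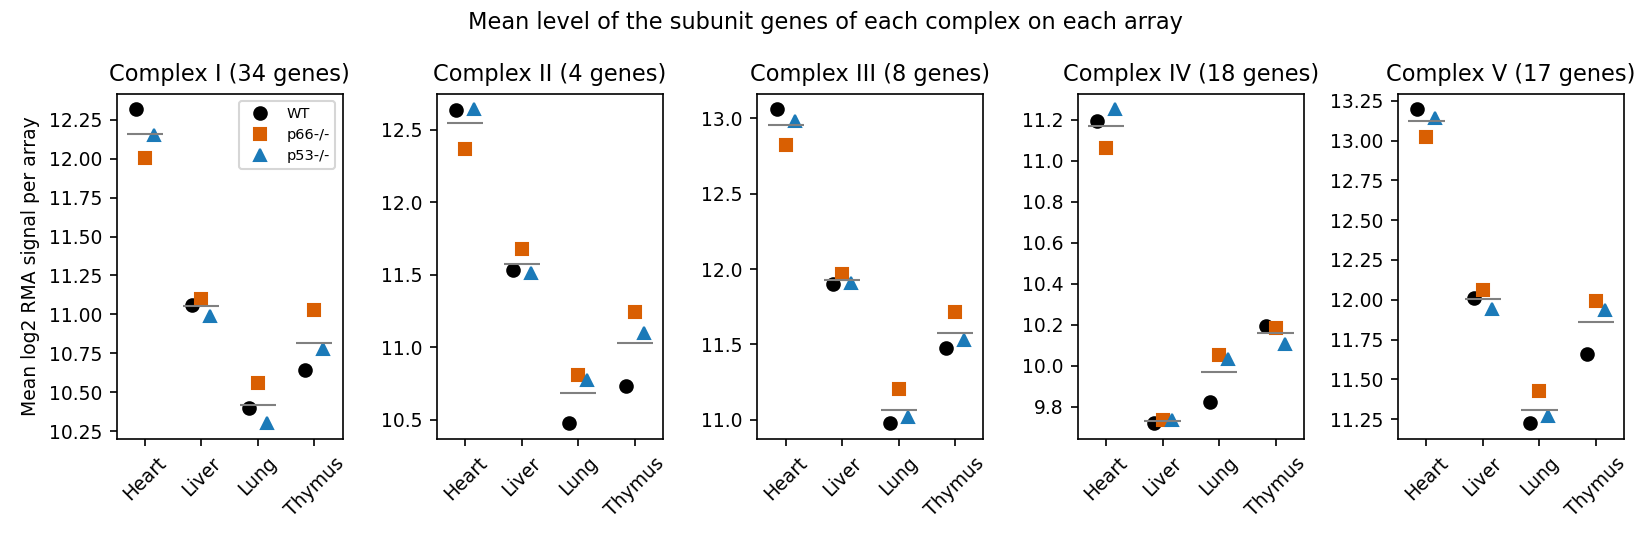
Mean log2 RMA signal of the subunit genes of each complex (y axes, on a separate scale in each panel that does not start at 0) on each array, by tissue (x axis). Symbols are arrays (circle WT, square p66-/-, triangle p53-/-), and the grey line is the mean of the 3 arrays of a tissue. The 3 heart arrays lie above the other 9 in every panel, and the 3 liver arrays are the lowest for complex IV, where lung is lowest if the paired forms are set aside (10.66 against 11.02 in liver).

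Gene by gene, 78 of the 90 members were higher in heart than in the mean of the other tissues and 1 was lower (limma over all genes and arrays with genotype as a term, Benjamini-Hochberg adjusted p under 0.05). Over all 18193 genes 16.3% were called higher and 20.4% lower in the same comparison. The median difference of the members was 1.32, against 0.07 over all genes. On 70 members every heart array exceeded all 9 other arrays, a pattern shown by 8.43% of all genes. Heart had the highest mean of the 4 tissues for 82 members, liver for 4, thymus for 3 and lung for 1, and lung had the lowest for 69. The order heart, liver, thymus, lung held for 51 members. The number lower in heart was 3 without the WT thymus array (Cox6a1, Cox6b2 and Cox7c), and 2 without p53-/- heart or without p53-/- thymus (Cox6a1 and Cox6b2).

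**Figure D2:**
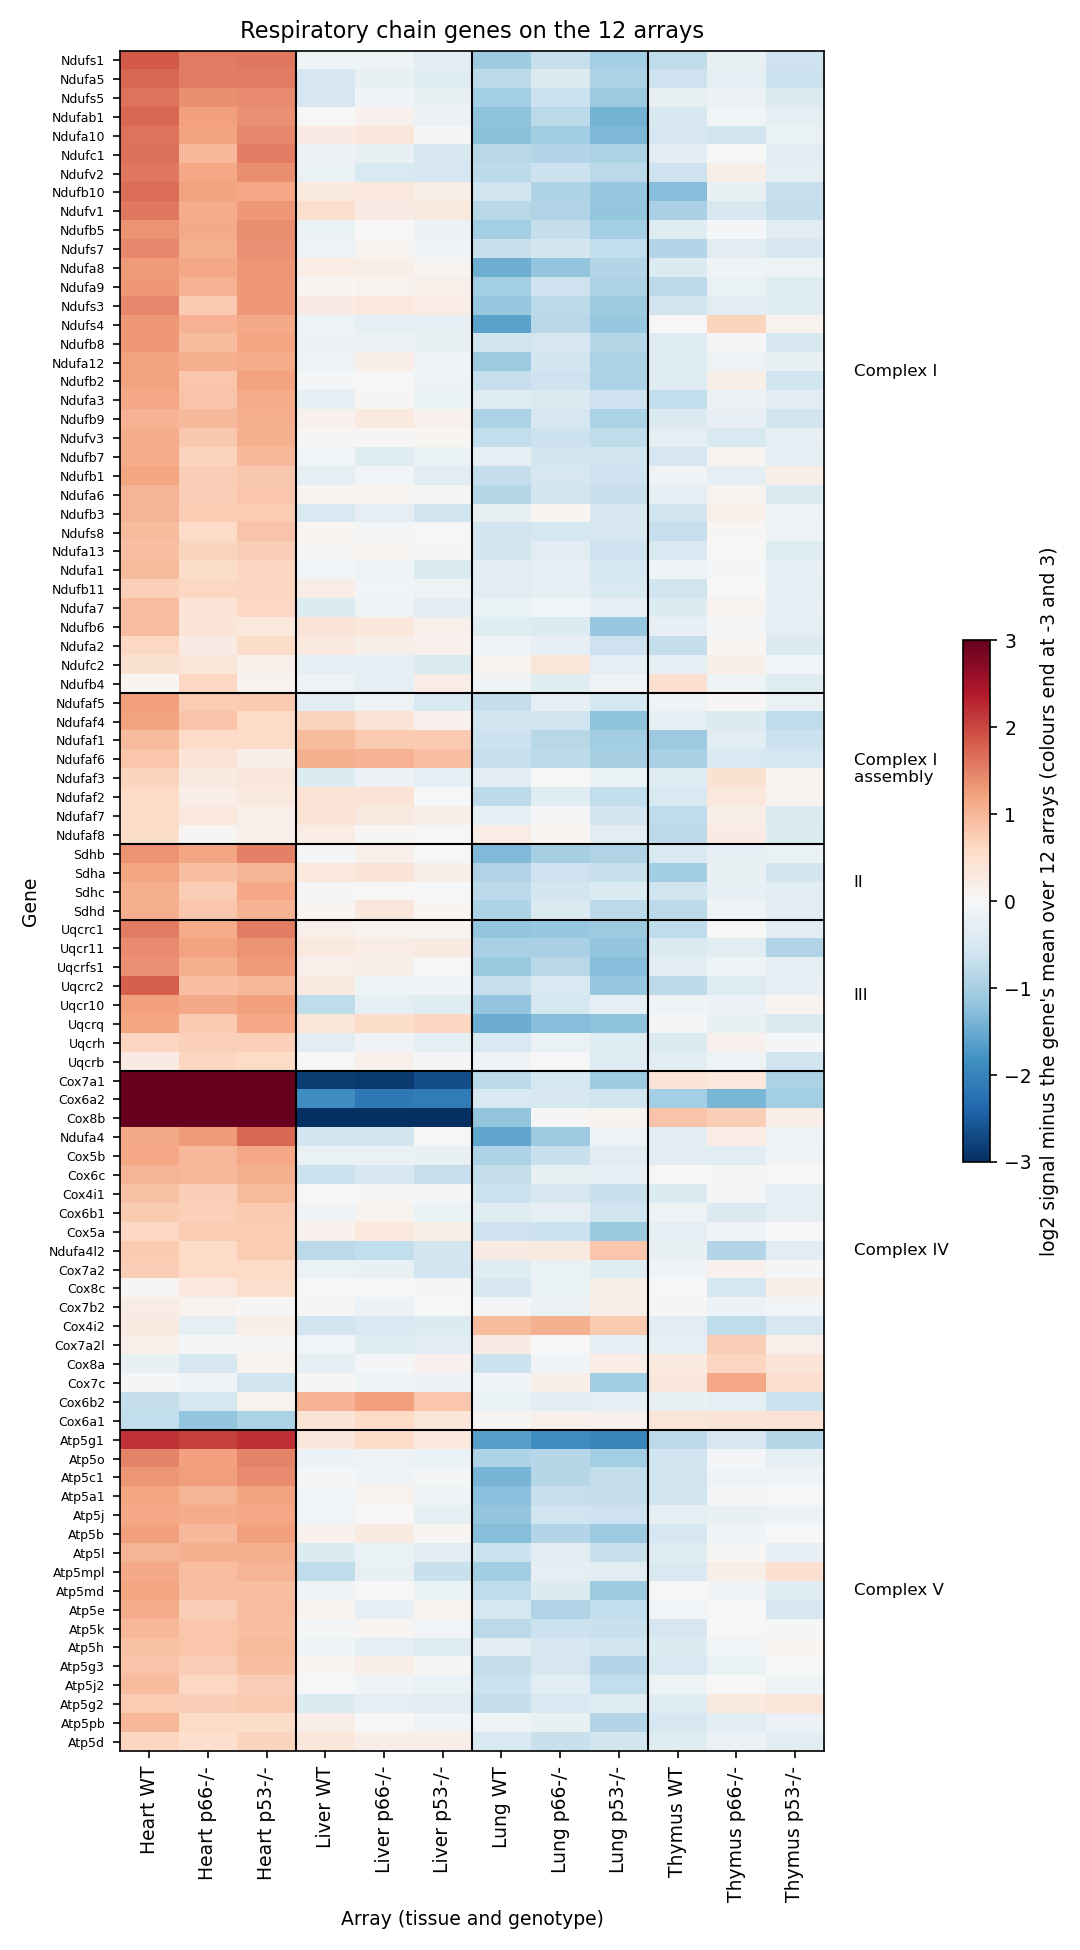
Signal of the 90 genes (rows, grouped by complex, with Cox7a2l shown in complex IV) on the 12 arrays (columns). Colour is the log2 signal minus the mean of that gene over all arrays, red higher and blue lower, and colours end at -3 and 3. Heart columns are red for nearly all genes, Cox7a1, Cox6a2 and Cox8b reach the ends of the scale in heart and are bluest in liver, and Cox6a1, Cox6b2 and Cox4i2 depart from the common pattern.

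In complex I, 33 of the 34 subunits were higher in heart, with a median difference of 1.48. They included 6 of 6 core subunits and 27 of 28 accessory subunits. Ndufs1, the largest iron-sulfur subunit, had 12.16, 11.86 and 11.89 in WT, p66-/- and p53-/- heart, 9.99 to 10.18 in liver, 9.24 to 9.63 in lung and 9.56 to 10.10 in thymus. The heart arrays lay clear of the rest, and the difference was 2.21 ± 0.14 (SE; limma adjusted p = 1.52e-06). Ndufc2, an accessory subunit, had the smallest difference of those called, 0.43 ± 0.13 (limma adjusted p = 0.0287), with p66-/- lung at 12.59 inside the range of heart, 12.38 to 12.68. The exception was Ndufb4, an accessory subunit, at 0.36 ± 0.20 (limma adjusted p = 0.187). Its probe set was dim, with 4.91 to 5.90 on the 12 arrays. Another probe set, annotated to Ndufb4 together with Ndufb4b and Ndufb4c, was left out by the single-symbol rule and not read. Whether Ndufb4 departs from the other subunits is therefore not read from this value.

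Of the 8 complex I assembly factors named Ndufaf, 5 were higher in heart and 3 did not pass the test, with a median difference of 0.61. These proteins help build complex I and are not part of the finished enzyme. Ndufaf6 and Ndufaf1 were higher in liver than in the other tissues, by 1.33 ± 0.16 and 1.12 ± 0.17 (limma adjusted p = 7.94e-05 and 0.000415). Ndufaf6 had 8.45, 8.42 and 8.28 in WT, p66-/- and p53-/- liver and 8.23, 7.77 and 7.59 in heart, against 6.39 to 6.68 in lung and 6.41 to 6.92 in thymus. Each liver array exceeded each heart array for this gene, and heart was still above the mean of the rest, by 0.64 ± 0.16.

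All 4 subunits of complex II were higher in heart. Sdhb, the iron-sulfur subunit, had 13.39, 13.21 and 13.55 in WT, p66-/- and p53-/- heart, 11.99 to 12.20 in liver, 11.58 to 11.83 in thymus and 10.71 to 11.14 in lung. The 4 tissues did not overlap, and heart differed from the rest by 1.79 ± 0.12 (limma adjusted p = 2.65e-06). Sdha, the flavoprotein that oxidizes succinate, differed by 1.39 ± 0.16, with 12.42 to 12.70 in heart and 11.68 to 11.89 in liver. The membrane anchors Sdhc and Sdhd differed by 1.33 ± 0.13 and 1.31 ± 0.15.

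In complex III all 8 subunits were higher in heart, with differences from 0.66 for Uqcrb, a small subunit, to 1.86 for Uqcrc1, a core protein. In complex V all 17 were higher, from 0.80 for Atp5d, the delta subunit of the central stalk, to 2.85 for Atp5g1. Atp5g1, Atp5g2 and Atp5g3 encode the same mature subunit c of the membrane rotor. Atp5g1 had 13.27, 13.15 and 13.29 in WT, p66-/- and p53-/- heart, 11.41 to 11.68 in liver, 10.24 to 10.61 in thymus and 9.11 to 9.48 in lung, with no overlap between tissues. Its difference in heart was 2.85 ± 0.13 (limma adjusted p = 1.62e-07), beside 1.01 ± 0.14 for Atp5g2 and 1.11 ± 0.13 for Atp5g3. Whether these differences differ from each other was not tested.

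Complex IV was uneven. Of its 18 subunit genes 11 were higher in heart, 1 was lower and 6 did not pass the test, with a median of 0.94 and a range from -1.28 to 4.92. The 6 were Cox7c, a common subunit whose probe set was dim (4.78 to 6.998), Cox7b2, with 4.11 to 4.52, the testis forms Cox6b2 and Cox8c, Cox8a and the lung form Cox4i2. Cox7a2l, a relative of subunit 7a that joins complexes III and IV, was at 0.06 (limma adjusted p = 0.817).

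Cox6a2, the heart and muscle form of subunit 6a, had 13.28, 13.25 and 13.47 in WT, p66-/- and p53-/- heart, 9.07 to 9.21 in lung, 8.29 to 8.65 in thymus and 7.52 to 7.81 in liver. The difference in heart was 4.90 ± 0.12, that is 29.8-fold (limma adjusted p = 3.81e-09). Its partner Cox6a1, the liver form, ran the other way, with 12.04, 11.59 and 11.82 in heart, 13.15 to 13.37 in liver, 13.13 to 13.20 in thymus and 12.82 to 12.92 in lung. It was lower in heart by 1.28 ± 0.13 and was the only member called lower there (limma adjusted p = 3.41e-05).

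Cox7a1, the heart and muscle form of subunit 7a, had 13.26, 12.72 and 12.97 in WT, p66-/- and p53-/- heart and 6.42 to 6.64 in liver. The medians of the 12 arrays of all tissues were 6.23 to 6.42. Lung had 8.22 to 8.77, and thymus had 9.68, 9.61 and 8.34 in WT, p66-/- and p53-/-, so that p53-/- thymus stood apart from the other thymus arrays. Its difference in heart was 4.92 ± 0.24 (30.2-fold, limma adjusted p = 2.49e-07). The liver form Cox7a2 was also higher in heart, by 0.85 ± 0.12, with 13.86 to 14.01 in heart and 12.70 to 13.40 elsewhere, so for subunit 7a the pair did not move in opposite directions.

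Cox8b, the heart and muscle form of subunit 8, had 13.59, 13.33 and 13.52 in WT, p66-/- and p53-/- heart, 11.13, 11.03 and 10.48 in thymus, 9.11, 10.33 and 10.38 in lung and 6.58 to 6.96 in liver. The tissues did not overlap, and the difference in heart was 4.26 ± 0.26 (19.2-fold, limma adjusted p = 1.32e-06). Its partner Cox8a had 11.11 to 11.70 in heart, which overlapped with liver (11.33 to 11.74) and lung (10.97 to 11.81) and lay below thymus (11.89 to 12.25). The difference of Cox8a in heart was -0.27 ± 0.16 (limma adjusted p = 0.194), on a probe set of a type that may bind related transcripts.

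Within each array the signal of the partner was subtracted from that of the tissue form, and the differences were compared between tissues. The sign within a tissue is not read, since the probe sets of a pair differ in brightness, but their change between tissues is on the log2 scale. Cox6a2 minus Cox6a1 was 1.52 ± 0.24 in heart against -5.60 ± 0.24 in liver, -3.73 ± 0.11 in lung and -4.65 ± 0.21 in thymus (SD, n = 3). Heart exceeded the other 9 arrays by 6.18 for this pair, by 4.07 for Cox7a1 minus Cox7a2 and by 4.53 for Cox8b minus Cox8a. Lung exceeded the others by 2.04 for Cox4i2, the lung form of subunit 4, minus Cox4i1, the common form, and by 1.87 for Ndufa4l2, a relative that hypoxia raises, minus Ndufa4, a small subunit of complex IV. In all 5 pairs the named tissue did not overlap with the other 9 arrays, and each gave p = 0.00455 in a two-sided exact permutation test, the smallest that 220 splits of 3 against 9 arrays allow. The pairs and their tissues were set with earlier results of these data known, so these p-values are not independent support. Ndufa4l2 itself had a mean of 8.10 in heart and 7.85 in lung, and its partner Ndufa4 was lowest in lung, at 10.60 against 11.18 to 12.91 in the other tissues.

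**Figure D3:**
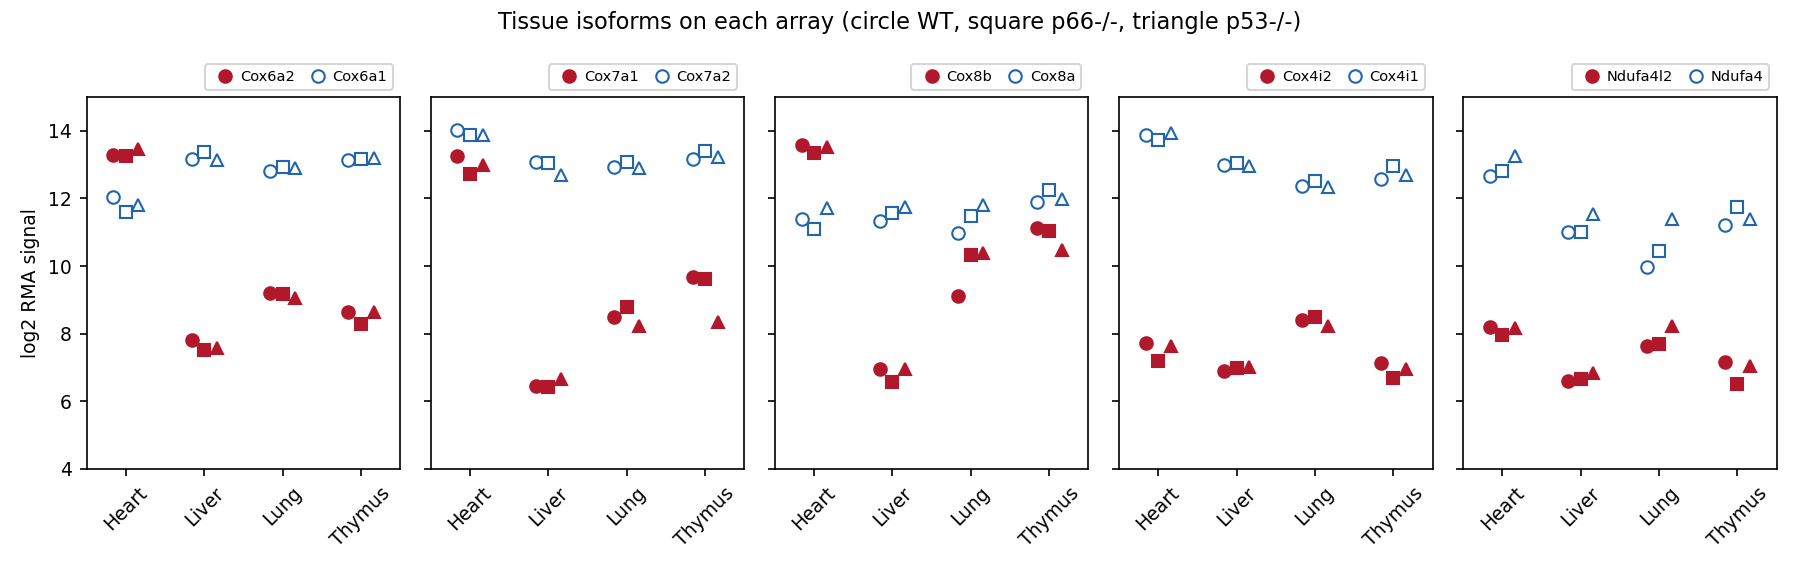
log2 RMA signal (y axis) of 5 pairs of related subunit genes on each array, by tissue (x axis). Filled red symbols are the form named first above each panel and open blue symbols its partner (circle WT, square p66-/-, triangle p53-/-). Cox6a2, Cox7a1 and Cox8b are highest in heart and lowest in liver, Cox6a1 is lowest in heart, and Cox4i2 is highest in lung.

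Cox4i2 had 8.40, 8.504 and 8.24 in WT, p66-/- and p53-/- lung, above 7.18 to 7.73 in heart, 6.88 to 7.02 in liver and 6.68 to 7.14 in thymus. It was the only member with its highest mean in lung and exceeded thymus by 1.46 ± 0.18 (limma adjusted p = 0.000141). Ndufa4l2 had 7.65, 7.69 and 8.22 in lung and 7.96 to 8.19 in heart, which overlapped, against 6.59 to 6.85 in liver and 6.52 to 7.16 in thymus. Cox6b2, the testis form of subunit 6b, had 8.28, 8.47 and 8.09 in liver and 6.54 to 7.34 on all other arrays, a difference of 1.38 ± 0.18 in liver (limma adjusted p = 0.00017). Cox6b1, the common form, was higher in heart by 1.01 ± 0.12.

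Promoter sequences are shown for the pairs of subunits 7a and 8, since Cox8b and Cox7a1 had the largest differences between heart and liver. The sequences are from RefSeq (GRCm38.p6), 300 bases each from 250 before to 50 after the start, 5′ to 3′ on the strand of the gene, at chr7:30183921-30184220 (plus strand) for Cox7a1, chr9:79759804-79760103 (minus) for Cox7a2, chr7:140900397-140900696 (minus) for Cox8b and chr19:7217567-7217866 (minus) for Cox8a. Capitals mark matches on either strand to the motifs searched, which were CCGGAAG (a core bound by ETS factors such as GABP), GCGCATGC (NRF1), AAGATGGCG (YY1), CAGCTG (an E-box bound by myogenic factors) and the MEF2 motif.
Cox7a1: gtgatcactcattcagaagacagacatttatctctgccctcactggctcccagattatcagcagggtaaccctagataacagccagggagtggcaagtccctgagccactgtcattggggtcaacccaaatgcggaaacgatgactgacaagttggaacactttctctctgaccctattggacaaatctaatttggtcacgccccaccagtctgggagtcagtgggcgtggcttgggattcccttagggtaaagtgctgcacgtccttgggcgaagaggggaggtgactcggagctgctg
Cox7a2: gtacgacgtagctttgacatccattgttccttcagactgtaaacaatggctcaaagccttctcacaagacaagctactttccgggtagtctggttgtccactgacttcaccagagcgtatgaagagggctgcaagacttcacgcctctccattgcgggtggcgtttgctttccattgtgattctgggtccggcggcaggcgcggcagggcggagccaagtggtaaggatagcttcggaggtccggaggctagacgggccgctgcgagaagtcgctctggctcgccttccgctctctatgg
Cox8b: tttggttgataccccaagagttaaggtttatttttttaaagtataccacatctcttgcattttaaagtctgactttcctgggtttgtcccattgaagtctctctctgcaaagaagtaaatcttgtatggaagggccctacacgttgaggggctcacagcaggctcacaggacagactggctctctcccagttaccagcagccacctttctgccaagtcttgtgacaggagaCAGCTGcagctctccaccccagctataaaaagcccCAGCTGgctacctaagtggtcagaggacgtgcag
Cox8a: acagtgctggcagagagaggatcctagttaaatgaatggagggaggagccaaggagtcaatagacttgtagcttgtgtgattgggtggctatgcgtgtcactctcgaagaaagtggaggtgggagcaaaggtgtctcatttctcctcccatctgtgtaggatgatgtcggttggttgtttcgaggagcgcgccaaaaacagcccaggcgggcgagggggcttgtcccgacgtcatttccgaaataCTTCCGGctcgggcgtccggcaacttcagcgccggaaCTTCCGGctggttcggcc

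The Cox8b window held CAGCTG at positions 232 and 267, counted from 1 at the 5′ end, and had 2 CpG, and the Cox8a window held CCGGAAG on the reverse strand at positions 246 and 283 and had 19 CpG. Cox7a1 and Cox7a2 held none of these letters, with 7 and 20 CpG. Of the 90 members 74 had a promoter in the table, and the first listed was used. CCGGAAG was present in 24.3% of the 74 and in 9.12% of 27025 promoters of all genes, GCGCATGC in 14.9% and 2.8%, AAGATGGCG in 8.11% and 1.49%, CAGCTG in 8.11% and 16.1%, and the MEF2 motif in 0 of 74 and 3.26%. The member promoters were also richer in CpG, with a median of 20 against 7, and the part of CpG content in these shares was not tested. A match is a stretch of letters and not a site of binding.

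The heart was then compared with liver alone, another organ rich in mitochondria. Of the members 74 were higher and 2 lower in heart, where 15.1% and 15.4% of all genes were called, and the median was 1.0 against 0.14. The muscle forms differed most, by 6.65 ± 0.32 for Cox8b (100.2-fold), 6.48 ± 0.29 for Cox7a1 (89.5-fold) and 5.71 ± 0.15 for Cox6a2 (52.2-fold). Next came Ndufa5, an accessory subunit of complex I, at 1.97 ± 0.16, and Ndufs1 at 1.86 ± 0.17. The members lower in heart were Cox6a1, by 1.42 ± 0.16, and Cox6b2, by 1.41 ± 0.22. The 18S rRNA controls were at 9.04 to 9.61 in heart and 6.07 to 6.61 in liver, and the Gapdh 3' minus 5' signal at 0.25 to 0.41 and 0.82 to 0.95, and their part in the result was not tested.

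Liver against the mean of the other tissues gave 9 members higher and 16 lower, near the 14.3% and 19.5% of all genes. The lowest were Cox8b (-4.60 ± 0.26), Cox7a1 (-3.73 ± 0.24) and Cox6a2 (-2.71 ± 0.12), followed by Ndufa4l2 (-0.93 ± 0.14) and Cox6c, subunit 6c (-0.81 ± 0.13). The highest were Cox6b2, Ndufaf6 and Ndufaf1, followed by Uqcrq, a small subunit of complex III (0.70 ± 0.14), and Cox6a1 (0.61 ± 0.13). The number lower was 7 without the WT liver array, 8 without p66-/- liver, 7 without p53-/- liver and 26 without the WT thymus array.

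Lung against thymus gave 29 members lower and 3 higher in lung, against 10.5% lower and 15.3% higher over all genes, with a median of -0.38 against -0.09. The Gapdh 3' minus 5' signal was 2.29, 1.32 and 0.66 in WT, p66-/- and p53-/- lung and 0.35, 0.59 and 0.24 in thymus, and that of beta-actin 1.80, 1.17 and 0.96 and 0.94, 0.95 and 0.64, and the part of this sign of RNA quality in the result was not tested. Ndufs4, an accessory subunit of complex I, differed most, with 8.43, 9.20 and 8.90 in WT, p66-/- and p53-/- lung and 10.03, 10.71 and 10.15 in thymus and no overlap (-1.45 ± 0.21, limma adjusted p = 0.000574). Atp5g1 (-1.11 ± 0.16), Uqcrq (-1.08 ± 0.18), the dim Cox7c (-0.9951 ± 0.24) and Ndufa8, an accessory subunit of complex I (-0.95 ± 0.16), came next. Cox7c did not pass the test after cyclic loess, a scaling of the arrays on each other that follows intensity (limma adjusted p = 0.0518). Of the 17 complex V subunits 10 were lower in lung, of the 8 in complex III 5, and of the 34 in complex I 9. The 3 higher in lung were Cox4i2, Ndufa4l2 (0.94 ± 0.18) and Cox6a2 (0.63 ± 0.15). Cardiomyocyte markers had means of 8.30 to 8.95 in lung and 6.27 to 8.38 in thymus, with 7 of 12 higher in lung, and their part in the Cox6a2 difference was not tested. Without the WT thymus array, which carried the salivary gland markers, 50 members were lower in lung. The count was 13, 18 and 17 without the WT, p66-/- and p53-/- lung array, and 15 and 18 without p66-/- and p53-/- thymus.

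Genes that work with the chain but fall outside the rule were read from lists. In the comparison of heart with the other tissues 16.3% of all genes were called higher and 20.4% lower. Of 17 measured tricarboxylic acid cycle and pyruvate entry genes, 16 were higher in heart and 1, Pcx (pyruvate carboxylase, which feeds gluconeogenesis), was lower (-1.51 ± 0.19). The largest differences were those of Idh2, mitochondrial isocitrate dehydrogenase (2.84 ± 0.14), Cs, citrate synthase (2.42 ± 0.11), Dlat, of pyruvate dehydrogenase (2.31 ± 0.16), and Idh3a, of NAD-dependent isocitrate dehydrogenase (2.19 ± 0.18). Of 17 electron carriers and other respiratory enzymes 14 were higher and 1 lower, led by Coq9, of ubiquinone synthesis (2.53 ± 0.17), with Gpd2, mitochondrial glycerol-3-phosphate dehydrogenase, at -2.11 ± 0.19, Etfdh, which passes electrons from fatty acid oxidation to ubiquinone, at 2.05 ± 0.16, and Cyc1, cytochrome c1 of complex III, at 1.76 ± 0.13. Of 35 assembly factors outside the rule 19 were higher and 0 lower, with a median of 0.54. They were led by Atpaf1, of ATP synthase (1.72 ± 0.15), and Uqcc2 and Uqcc1, of complex III (1.48 ± 0.13 and 1.43 ± 0.12). Among 18 biogenesis regulators 7 were higher and 2 lower, with a median of -0.29, and the coactivator Ppargc1a had 8.76, 8.91 and 8.18 in WT, p66-/- and p53-/- heart and 5.42 to 6.88 elsewhere (2.42 ± 0.23, limma adjusted p = 2.2e-05). Esrra, a nuclear receptor (1.15 ± 0.15), and Ppargc1b, a related coactivator (1.08 ± 0.13), were also higher, and the lower ones were Yy1 (-1.76 ± 0.32), a transcription factor, and Mterf1a (-0.87 ± 0.19), a mitochondrial transcription terminator.

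The next question was whether loss of p53 or of p66 went with another level of these genes. Taken over the 4 tissues, no member passed the threshold in either knock-out (limma with tissue as a term, 6 residual degrees of freedom), as for all genes, of which 0.0% were called higher and 0.0055% lower in p53-/-, and 0.0% in each direction in p66-/-. At an unadjusted p under 0.05 in limma, 3 of the 90 members were higher and 2 lower in p53-/-, beside 758 and 1115 of all 18193 genes. In p66-/- there were 0 members in each direction, beside 332 genes higher and 385 lower. The median difference was -0.03 for p53-/- and 0.08 for p66-/-, and over all genes 0.04 and 0.02.

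The lowest p in p53-/- was that of Ndufaf4, at -0.55 ± 0.12 (limma unadjusted p = 0.000796, adjusted p = 0.217). It had 9.70, 9.15, 7.88 and 8.21 in WT heart, liver, lung and thymus and 9.09, 8.61, 7.28 and 7.73 in p53-/-, lower in 4 of 4 tissues. Without the WT thymus array its limma adjusted p was 0.029, for a difference of -0.58. Ndufa4 had 12.67, 10.99, 9.97 and 11.21 in WT heart, liver, lung and thymus and 13.26, 11.55, 11.38 and 11.38 in p53-/-, above WT in 4 of 4 tissues (0.69 ± 0.21, limma adjusted p = 0.339). With thymus left out its limma adjusted p was 0.0337, for a difference of 0.86. Ndufb6, an accessory subunit of complex I (-0.43 ± 0.16), Cox8a (0.42 ± 0.17) and Atp5c1, the gamma subunit of ATP synthase (0.33 ± 0.15), followed in order of p in the fit of all arrays. The fits without the WT thymus array and without thymus are named because a member passed in them. They were picked from fits that left out each of 12 arrays and each of 4 tissues. No member passed with all arrays, so no effect of p53 loss is read from them. In p66-/- the lowest p belonged to Atp5mpl, a small subunit of ATP synthase (0.43 ± 0.20), Uqcrh, the hinge protein of complex III (0.27 ± 0.12), Atp5l, subunit g of ATP synthase (0.24 ± 0.12), Atp5a1, its alpha subunit (0.29 ± 0.15), and Ndufa12, an accessory subunit of complex I (0.25 ± 0.13), each with a limma adjusted p of 0.9999. Both knock-outs were set against the same WT arrays.

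Within a tissue each genotype had 1 array, so differences are given without a test. Few members differed by 2-fold. There were 0 in heart (2.19% of all genes in p53-/- and 1.85% in p66-/-), 0 in liver (0.511% and 0.385%), 2 in p53-/- lung (4.76%), 1 in p66-/- lung (0.654%), 1 in p53-/- thymus (13.7%) and 2 in p66-/- thymus (17.5%). In lung these were Ndufa4 (1.41) and Cox8b (1.27) in p53-/- and Cox8b (1.22) in p66-/-. Both knock-out arrays were set against the same WT lung array, which had the lowest Cox8b signal of the tissue. Several fat markers were also lowest on the WT lung array. In WT, p66-/- and p53-/- lung, where Cox8b had 9.11, 10.33 and 10.38, Ucp1, the uncoupling protein of brown fat, had 9.88, 11.08 and 10.61, Cidea, a lipid droplet protein of brown fat, had 8.56, 9.998 and 9.64, and Adipoq, the adipocyte hormone adiponectin, had 9.43, 11.08 and 10.61. The 6 measured adipocyte markers had means of 8.39, 8.91 and 8.93, with 1 of 6 higher by 2-fold in p53-/- and 2 of 6 in p66-/-. The 6 measured brown adipocyte markers had means of 6.85, 7.18 and 6.98, with 1 higher and 1 lower in p53-/- and 2 higher in p66-/-. Their part in the Cox8b difference was not tested. In thymus Cox7a1 stood at -1.34 in p53-/-, and Ndufb10, an accessory subunit of complex I, and Ndufaf8 stood at 1.06 and 1.03 in p66-/-.

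Cox7a1 in thymus was read beside the markers of tissues that use the muscle forms. In WT, p66-/- and p53-/- thymus, where Cox7a1 had 9.68, 9.61 and 8.34, the 12 cardiomyocyte markers had means of 8.38, 8.29 and 6.27, and 8 of them were 2-fold lower in p53-/- than in WT. The 6 measured brown adipocyte markers had means of 8.06, 7.55 and 7.03, with 4 of 6 lower by 2-fold in p53-/-. The 11 skeletal muscle markers had 6.63, 6.498 and 9.37, the other direction, with 11 of 11 higher in p53-/-. Their part in the Cox7a1 difference was not tested.

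The medians over all 90 members were small. In heart the members had a median of -0.26 in p66-/-, with 82 of 90 below WT, and -0.09 in p53-/-. The share of all genes below WT was not counted. In p66-/- and p53-/- respectively, the medians were 0.03 and -0.05 for liver, 0.21 and -0.05 for lung, and 0.35 and 0.17 for thymus. Over all genes the 8 medians ran from -0.03 to 0.07. These signs depended on the scaling. After cyclic loess the heart medians were 0.09 in p66-/- and 0.20 in p53-/-, those of thymus were -0.13 and -0.14, and those of p53-/- liver and lung were 0.07 and 0.09. With each array centred on its median, p66-/- liver was at -0.03. No direction is therefore read for these. In p66-/- lung the median stayed above 0, at 0.15 after cyclic loess. The Gapdh 3' minus 5' signal was 2.29 in WT and 1.32 in p66-/- lung, where 4 of 6 B and plasma cell markers and 5 of 11 thymocyte markers were higher by 2-fold, and their part in this median was not tested.

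**Figure D4:**
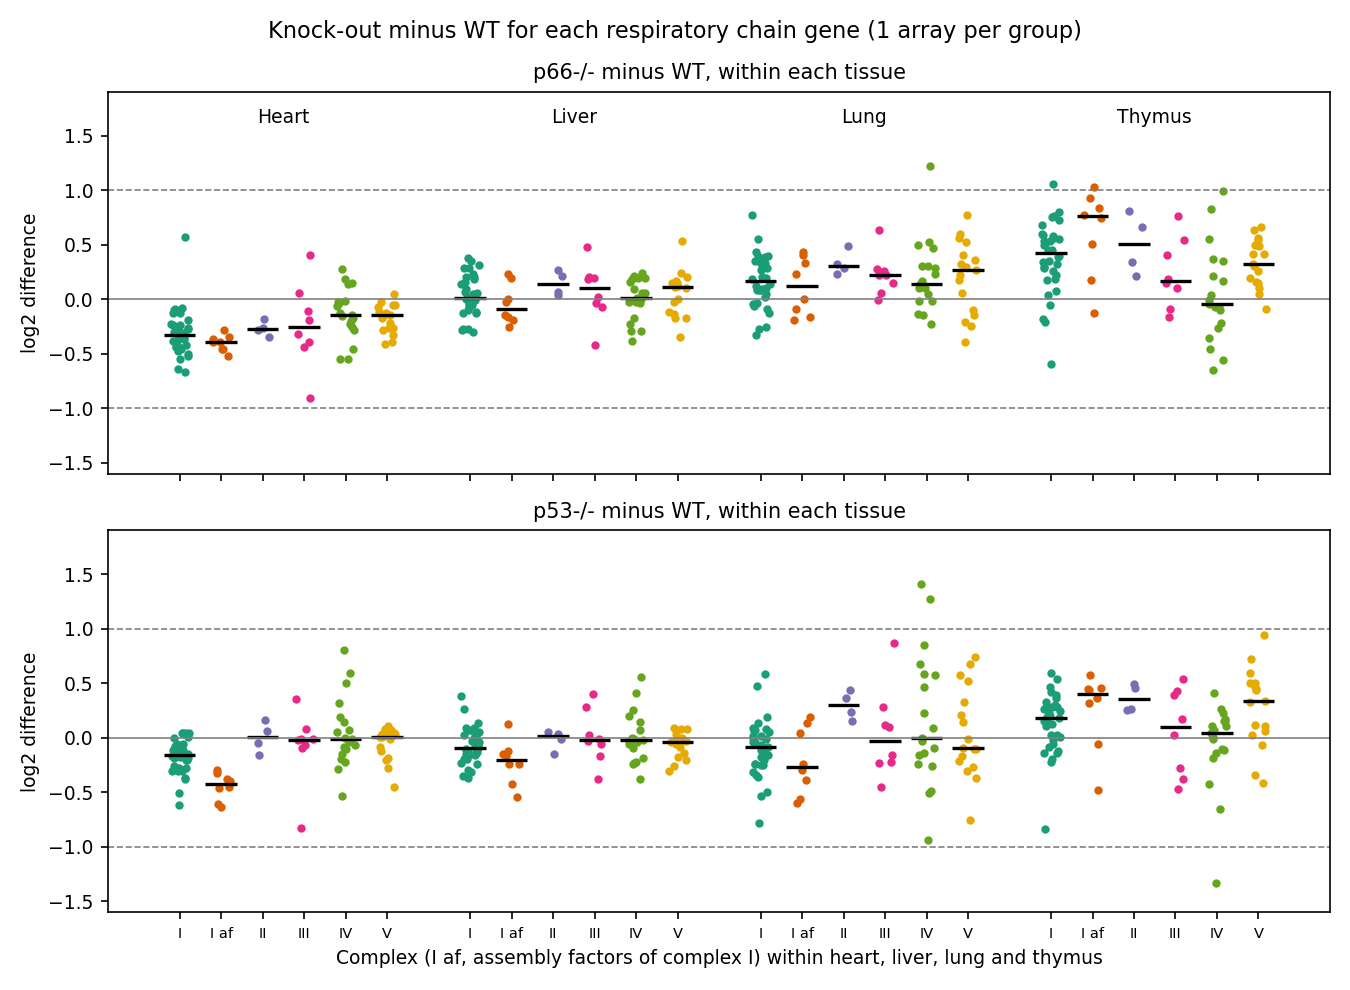
Knock-out minus WT on the log2 scale (y axis) for each gene (points) within each tissue, by complex (x axis; I af, assembly factors of complex I; IV includes Cox7a2l), for p66-/- (upper) and p53-/- (lower). Black lines are medians, dashed lines mark 2-fold, and there was 1 array per group. Few points pass 2-fold, and the groups of points in thymus p66-/- lie mostly above 0 except for complex IV, in RMA values whose medians change sign after cyclic loess.

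In p66-/- thymus the medians by complex, on the RMA values alone, were 0.42 for complex I (30 of 34 above WT), 0.76 for its assembly factors (7 of 8), 0.50 for complex II (4 of 4), 0.17 for complex III (6 of 8), -0.06 for complex IV (7 of 18) and 0.32 for complex V (16 of 17). Over all genes the median was -0.03, and the share of all genes above WT was not counted. These medians were not recomputed after cyclic loess, which took the median of all members to -0.13. No direction is read from them. Sdha had 10.47, 11.28 and 10.96 in WT, p66-/- and p53-/- thymus. The WT thymus array differed from the knock-out arrays in its 12 salivary gland markers, each of which was at least 2-fold lower in both, and in thymocyte markers, of which 8 of 11 were 2-fold higher in p66-/- and 7 of 11 in p53-/-. The 18S rRNA controls were at 10.86, 5.97 and 10.30. Their part in the differences of the respiratory chain genes was not tested.

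In heart the 3 lowest members in p66-/- were Uqcrc2, a core protein of complex III (-0.90), Ndufs3, a core subunit of complex I (-0.66), and Ndufc1, an accessory subunit (-0.64). Uqcrc2 was also lowest in p53-/- heart (-0.83), with 13.23, 12.33 and 12.41 in WT, p66-/- and p53-/-, and lowest in p66-/- liver (-0.42). The salivary gland markers had means of 8.49 in WT heart and 5.69 and 5.42 in p66-/- and p53-/- heart. The highest members in heart were Cox6b2 (0.81), Ndufa4 (0.59) and Cox8c (0.50) in p53-/-, and Ndufb4 (0.57), Uqcrb (0.40) and Cox8c (0.28) in p66-/-. In liver all members lay between -0.54 and 0.56, with Ndufaf4 lowest and Ndufa4 highest in p53-/- and Atp5mpl highest in p66-/- (0.53). In lung Cox7c (-0.94) and Ndufb6 (-0.79) were lowest in p53-/-, where Uqcr10, a small subunit of complex III, was at 0.87, and Atp5mpl and Ndufs4 were at 0.77 in p66-/-. Lowest in p66-/- lung was Atp5e, the epsilon subunit of ATP synthase (-0.39). In thymus Atp5mpl (0.94) and Atp5g2 (0.72) were highest in p53-/-, and Cox7a2l was at 0.99 in p66-/-. Ndufb4 was at -0.83 in p53-/- thymus, and Ndufa4l2 (-0.64), Ndufb4 (-0.59) and Cox8c (-0.56) were lowest in p66-/- thymus.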

How the data were processed

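Total RNA of heart, liver, lung and thymus, pooled from 4 mice for each of WT, p66-/- and p53-/-, was extracted with Trizol and hybridised to Affymetrix Mouse Genome arrays. The deposited log2 signals were made by the authors with RMA in Partek 6.5 (per the labels), a procedure that corrects background, makes the distributions of arrays equal and combines probes by median polish, so that a shift of most transcripts in 1 tissue would not be seen. Groups were taken from the sample titles.

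Of 45101 probe sets 64 controls were set aside, and 34945 carried a single gene symbol in the platform's annotation. Those with several (932) or none (9160) were not used. The probe set of highest mean stood for each of 18193 genes. All 90 members matched a RefSeq gene table. Of them 39 had a single probe set and 51 several, 21 were read from sets ending in _x_at or _s_at that may bind relatives, 86 exceeded the array median on all arrays, and 2 lay below it on all. Of 89 other probe sets of members 5 had the opposite sign for heart against the rest, 0 of them among the 65 at or above the median gene.

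limma 3.58.1 (R 4.3.3) was fitted to 12 arrays with tissue and genotype (6 residual degrees of freedom), with Benjamini-Hochberg adjustment over all genes and a threshold of 0.05. It was tested on simulated data, where 99% of 200 genes changed by 1.5 in heart were recovered with 8 false calls. The simulated arrays had independent noise and no other differences between tissues or genotypes. These rates therefore check the code and need not hold for the data. The residual holds genotype effects that differ between tissues. The arrays of a tissue differ in genotype, and their number limits the precision. Within a tissue only 2-fold differences were counted, without a test. Isoform pairs were compared by exact permutation over arrays. Other steps ran in Python 3.11.15 (pandas 2.3.3, with scipy 1.17.1, numpy 2.4.6; figures, matplotlib 3.10.9). The members and lists were chosen with earlier results of these data known, and the salivary gland list came from them. Alternatives were median centring, cyclic loess, the mean of probe sets, leaving out _x_at and _s_at sets, brighter genes, an intensity trend, tissue as a random block, other fold thresholds, and each array or tissue left out.

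Named genes were the isoform pairs, Sdha to Sdhd, up to 4 genes of each list, and single exceptions of a complex. They also included the 5 most different members in each direction in each tissue comparison, and the 5 of lowest p in each knock-out. Within a tissue they were drawn from the 3 highest and 3 lowest members, not all of which are named. Genes named outside this rule are examples chosen after their values were seen.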

Additional observations from a re-analysis of the deposited data

Results flagged for a closer look

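Cox8b, the heart and muscle form of subunit 8 of complex IV, stood at 1.27 against WT in p53-/- lung and at -0.65 in p53-/- thymus. It was singled out because it differed by at least 1.5-fold in opposite directions in 2 tissues of the same knock-out, and no other member did so in either knock-out. That size was set after the data were seen, and a stricter form that asked both knock-outs to move alike singled out no member. With 1 array per group the difference between the tissues was not tested. The cardiomyocyte markers were at a mean of 8.95 in WT and 8.30 in p53-/- lung, and at 8.38 and 6.27 in thymus, so that in lung they moved the other way from Cox8b. The median of the adipocyte markers moved with Cox8b in both tissues, at 0.66 against WT in p53-/- lung and -0.87 in p53-/- thymus. That of the brown adipocyte markers was 0.24 and -1.18. Ucp1, the uncoupling protein of brown fat, had 9.88 in WT and 10.61 in p53-/- lung, and 12.21 and 10.86 in thymus. Not all markers of these lists followed in lung. Elovl3 of the brown adipocyte list had 7.40 in WT and 6.12 in p53-/- lung, and Pck1 of the adipocyte list had 8.75 and 8.11. At 2-fold, 1 of 6 brown adipocyte markers was higher and 1 lower in p53-/- lung. The part of these markers in the difference was not tested.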

How the results depend on the processing

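Of 381 values recomputed under the alternatives, 344 stayed within 1.5 times the main count, on the same side of the threshold or within the spread of arrays. A member median that moved by less than that spread was counted as unchanged, also where its sign changed. A change of direction was scored for the isoform pairs alone, of which 0 reversed. The members higher in heart numbered 71 to 81 under other settings and 74 to 82 with an array left out, and the tissue differences of all 5 isoform pairs kept their sign (5.94 to 6.32 for Cox6a2 minus Cox6a1). With an array left out, the members lower in heart numbered 1 to 3, in liver 7 to 26 and in lung against thymus 13 to 50. Under cyclic loess, the mean of probe sets and the brighter genes, 2 were lower in heart, the second being Cox6b2 (adjusted p = 0.054 in the main fit and 0.0308 after loess by limma). In p53-/- across tissues 0 to 1 were called higher and 0 to 1 lower with an array or tissue left out.

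Within tissues, the 1.5-fold threshold gave 6 members in p53-/- heart, 3 in p66-/- heart, 11 in p53-/- lung, 5 in p66-/- lung, 7 in p53-/- thymus and 22 in p66-/- thymus, and 3-fold gave 0 in lung and thymus of either knock-out. The share of all genes past these thresholds was not counted, so these numbers are not read as a result about the members. At 2-fold, 17.5% of all genes already differed in p66-/- thymus. Leaving out _x_at and _s_at sets gave 1 in p66-/- heart, 2 in p53-/- thymus and 5 in p66-/- thymus, cyclic loess 5 in p53-/- lung, and the mean of probe sets 1 in p66-/- thymus. The sign of the member medians in heart, in thymus and in p53-/- liver and lung changed after cyclic loess. The cause was not tested. Knock-out and WT were compared within tissues in the fit itself, which has tissue as a term, and with tissue as a random block 0 members were called in either knock-out.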

Other observations

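In liver against the other tissues 6 of the 81 subunit genes were higher and 15 lower, where 14.3% of all genes were called higher and 19.5% lower. Genes that serve the chain were read in the same comparison, and whether the lists differ from the subunits or from each other was not tested. Of 35 assembly factors outside the subunit families 11 were higher in liver than in the other tissues and 2 were lower (limma adjusted p under 0.05). Sco2, a copper chaperone of complex IV, had 11.13, 10.96 and 10.94 in WT, p66-/- and p53-/- liver and 7.07 to 9.12 elsewhere (2.72 ± 0.25, SE). Timmdc1 and Nubpl, which help assemble complex I, were higher by 1.21 ± 0.16 and 1.08 ± 0.13, and Lrpprc, which stabilizes mitochondrial messenger RNA, by 1.16 ± 0.24. The lower ones were Uqcc2 (-0.56 ± 0.13) and Cox20 (-0.56 ± 0.14).

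Of 17 electron carriers and other respiratory enzymes 8 were higher in liver and 0 lower, among them Coq8a (1.63 ± 0.15) and Pdss2 (1.38 ± 0.13) of ubiquinone synthesis and Gpd2 (1.29 ± 0.19). The tricarboxylic acid cycle list gave 2 higher, Pcx (3.21 ± 0.19) and Suclg2 (1.53 ± 0.12), a succinate-CoA ligase subunit, and 7 lower, led by Cs (-1.56 ± 0.11). Of 18 biogenesis regulators 5 were higher and 0 lower, and Ppara, a receptor that drives fatty acid oxidation, differed most (3.71 ± 0.15). These counts stand beside the same shares of all genes. In either knock-out across tissues no gene of these 4 lists passed the test by limma.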
